A study of Mus musculus and Rattus norvegicus with 26 samples.

Results

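Intron sequence was compared between dendrites and cell bodies (somas) of mouse hippocampal neurons. The comparison rests on 2 deposited lists of intronic contigs, stretches of intron covered by clustered reads, 1 list for dendrites and 1 for somas. All contigs of both lists were taken, and introns were matched by RefSeq transcript, gene symbol and intron number. The lists together held 24996 introns of 9763 genes, out of 57490 introns in all 6 lists of the series, which also covers rat neurons, mouse brown fat (BAT) cells and mouse cardiomyocytes. The neurons came from C57BL/6 mice at embryonic day 18 and were grown as primary cultures. Each dendrite library pools many dendrites cut by hand from many cells, while each soma library is 1 cell body. The authors state that the cutting does not separate dendrites from axons, and that axons are a small part of the volume. The dendrite list can therefore hold axonal RNA. Both groups went through 3 rounds of aRNA amplification, a linear method in which a poly(T) primer with a T7 promoter attached starts the copying. The labels name no treatment or altered gene for either group. Each list pools 3 libraries, so no value per library can be given, no error between libraries is known, and no comparison below carries a test or a p-value.

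Introns are normally removed from a transcript in the nucleus, before the mRNA is exported. Some transcripts keep stretches of intron in the cytoplasm, where they can carry signals for localisation or add to the variety of the encoded proteins, and the study calls them CIRTs (cytoplasmic intron-sequence retaining transcripts). A dendrite holds no nucleus, whereas a soma holds one, and unspliced nuclear RNA and cytoplasmic RNA cannot be told apart in its list. Fewer cells that carry a transcript and less of it per cell cannot be told apart either.

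The sequences of 4 introns found in both lists are given to show the stretch that the lists share. They are the introns with the most reads in both lists among those whose contigs span at most 300 bases. The sequences were read from the NCBIM37 genome (mm9) on the strand of the gene, 5′ to 3′, and capitals mark the bases that lie in the dendrite contig and in the soma contig.
Zfp938, intron 3, minus strand, chr10:81690007-81690274: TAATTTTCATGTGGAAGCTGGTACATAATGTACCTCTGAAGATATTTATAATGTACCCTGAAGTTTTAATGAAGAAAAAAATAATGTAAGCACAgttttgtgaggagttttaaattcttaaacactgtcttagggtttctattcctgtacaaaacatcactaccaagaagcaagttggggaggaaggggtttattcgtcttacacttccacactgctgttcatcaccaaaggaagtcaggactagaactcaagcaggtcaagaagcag
Mettl3, intron 9, minus strand, chr14:52915862-52916116: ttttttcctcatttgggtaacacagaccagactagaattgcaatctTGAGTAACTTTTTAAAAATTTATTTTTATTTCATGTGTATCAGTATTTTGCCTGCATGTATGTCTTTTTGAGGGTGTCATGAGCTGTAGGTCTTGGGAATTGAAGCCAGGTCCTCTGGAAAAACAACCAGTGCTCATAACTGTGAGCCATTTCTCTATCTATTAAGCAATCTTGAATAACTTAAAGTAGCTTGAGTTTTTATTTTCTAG
Med1, intron 16, minus strand, chr11:98019784-98019986: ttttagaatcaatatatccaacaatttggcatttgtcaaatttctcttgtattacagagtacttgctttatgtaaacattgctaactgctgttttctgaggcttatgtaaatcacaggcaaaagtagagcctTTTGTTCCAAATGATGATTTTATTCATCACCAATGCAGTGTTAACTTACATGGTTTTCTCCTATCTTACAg
Pi4ka, intron 48, minus strand, chr16:17283021-17283315: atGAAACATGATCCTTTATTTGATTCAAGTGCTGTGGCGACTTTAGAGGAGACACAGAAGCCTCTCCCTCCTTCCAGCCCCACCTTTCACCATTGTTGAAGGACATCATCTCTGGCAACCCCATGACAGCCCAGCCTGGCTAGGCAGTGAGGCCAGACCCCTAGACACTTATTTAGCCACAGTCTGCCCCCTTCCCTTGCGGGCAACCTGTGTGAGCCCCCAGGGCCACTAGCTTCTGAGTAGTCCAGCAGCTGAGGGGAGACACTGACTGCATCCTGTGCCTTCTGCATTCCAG
In Zfp938, a zinc finger gene, the dendrite contig of 94 nt lay wholly inside the soma contig of 268 nt, with 3026 reads in dendrites and 2064 in somas. In Mettl3, the catalytic subunit of the m6A RNA methyltransferase, the 2 contigs had 209 bases in common, with 420 reads in dendrites and 865 in somas. In Med1, a subunit of the Mediator complex, the common stretch was 70 bases, with 909 reads in dendrites and 169 in somas. In Pi4ka, a phosphatidylinositol 4-kinase, the contigs differed by only 2 bases out of 295, and the intron had 199 reads in dendrites and 181 in somas. The short introns of Mettl3 (329 nt) and Pi4ka (372 nt) were thus covered over most of their length by contigs of both lists, while the contigs in Med1 took up a small part of an intron of 2467 nt.

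Contigs of genes found in a single list are shown for comparison. They are the 2 introns with the most reads in a single contig of at most 300 nt in each such group of genes, and capitals mark runs of at least 10 T or A.
Zfp661 (dendrites only), intron 4, minus strand, chr2:127404456-127404746: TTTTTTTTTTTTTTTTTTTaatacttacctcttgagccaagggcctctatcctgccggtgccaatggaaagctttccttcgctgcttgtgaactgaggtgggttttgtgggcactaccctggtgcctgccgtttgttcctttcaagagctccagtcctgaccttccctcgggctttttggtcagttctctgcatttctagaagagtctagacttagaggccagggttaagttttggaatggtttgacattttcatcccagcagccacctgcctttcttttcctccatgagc
Nox1 (dendrites only), intron 5, minus strand, chrX:130633483-130633598: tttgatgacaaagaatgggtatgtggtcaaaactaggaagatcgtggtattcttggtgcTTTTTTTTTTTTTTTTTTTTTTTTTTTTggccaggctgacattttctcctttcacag
Rbpms2 (somas only), intron 2, plus strand, chr9:65497495-65497715: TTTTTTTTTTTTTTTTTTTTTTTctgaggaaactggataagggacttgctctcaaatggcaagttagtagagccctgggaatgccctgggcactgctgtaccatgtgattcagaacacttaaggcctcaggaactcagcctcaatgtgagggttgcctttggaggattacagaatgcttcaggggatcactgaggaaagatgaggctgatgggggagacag
Rhot2 (somas only), intron 5, minus strand, chr17:25979869-25980050: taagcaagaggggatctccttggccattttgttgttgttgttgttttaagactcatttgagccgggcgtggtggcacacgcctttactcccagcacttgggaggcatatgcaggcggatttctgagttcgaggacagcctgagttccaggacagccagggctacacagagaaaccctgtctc
Zfp661, a zinc finger gene, had 7550 reads in dendrites, and its contig opened with a run of 19 T. Nox1, a superoxide-producing NADPH oxidase, had 3671 reads in dendrites in a contig that filled 116 of the 125 nt of its intron and held a run of 28 T from base 60. Rbpms2, an RNA-binding protein, had 3477 reads in somas, and its contig opened with a run of 23 T. Rhot2, a mitochondrial GTPase that links mitochondria to their transport motors, had 1565 reads in somas in a contig without such a run. Runs of T or A near contig ends were common in both lists and are counted further on.

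The list for dendrites was the longer of the pair. It held 26445 contigs in 19477 introns of 8607 genes, with 3086576 reads, and the list for somas held 12931 contigs in 10568 introns of 5895 genes, with 1855447 reads. Reads were therefore scaled to 1000000 reads of each list, and "scaled reads" below means this value. The read count belongs to the intron, since none of the 3904 dendrite introns and 1493 soma introns with several contigs carried more than 1 count. The median intron had 24 reads in dendrites and 22 in somas. The 100 introns with the most reads held 19.3% of all reads in dendrites and 31.0% in somas. The soma list is shorter, so 100 introns are a larger part of it, which can add to this difference. Of the 19431 annotated protein-coding genes with an intron, 43.9% were in the dendrite list, 30.1% in the soma list and 50.2% in neither. Contigs longer than 400 nt made up 32.7% of the soma list. The paper left such soma contigs out of its own counts to limit nuclear RNA, whereas they are kept here.

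Most listed genes and introns were found in dendrites, and a far smaller share of the introns than of the genes was common to both lists. Of the 9763 genes, 3868 were listed in dendrites only (39.6%, 95% Wilson interval 38.7 to 40.6), 1156 in somas only (11.8%, interval 11.2 to 12.5) and 4739 in both (48.5%, interval 47.5 to 49.5). These and all other intervals cover counting error only, since reads copied by amplification and introns of 1 gene are not independent. Reads came from paired ends, and 76.6% of the counts in dendrites and 74.7% in somas were even numbers. Of the 24996 introns, 14428 were listed in dendrites only (57.7%), 5519 in somas only (22.1%) and 5049 in both (20.2%). Of the genes in both lists, 3462 had an intron in common and 1277 (26.9%) had none. An intron absent from a list may still have had reads that the authors' filters or the depth did not keep, so absence is not given as a fold.

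Introns with many reads were more often found in the other list than introns with few. Of the soma introns with at least 2 reads, 47.8% were also in dendrites, and of those with at least 1024 reads, 62.0% (353 introns). Of the dendrite introns the shares found in somas were 25.9% and 57.0% (586 introns). The classes above thus change with the number of reads, and even at 1024 reads many introns were listed on 1 side alone.

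Among introns listed in both, the number of reads in dendrites and in somas showed no rank correlation. Over the 5049 introns, Spearman's rank correlation between the reads in dendrites and in somas was −0.02, and over the summed reads of the 4739 genes in both it was 0.16, each given as a description over introns or genes that share 2 pooled lists. The ratio of scaled reads, dendrites over somas, had a median of −0.06 on the log2 scale, and the middle 50% of introns ran from −2.64 to 3.27. At least 4-fold higher in dendrites were 1637 introns (32.4%), and at least 4-fold higher in somas were 1532 (30.3%). The 1637 had a median of 262 reads in dendrites against 4 in somas, and the 1532 had 8 in dendrites against 148 in somas. Most of these introns thus had few reads in the other list. With at least 16 reads required in each list, 1969 introns were left, of which 255 (13.0%) were past the fold in dendrites and 585 (29.7%) in somas, so the near balance of the full set was not seen among introns with more reads in both.

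**Figure D1:**
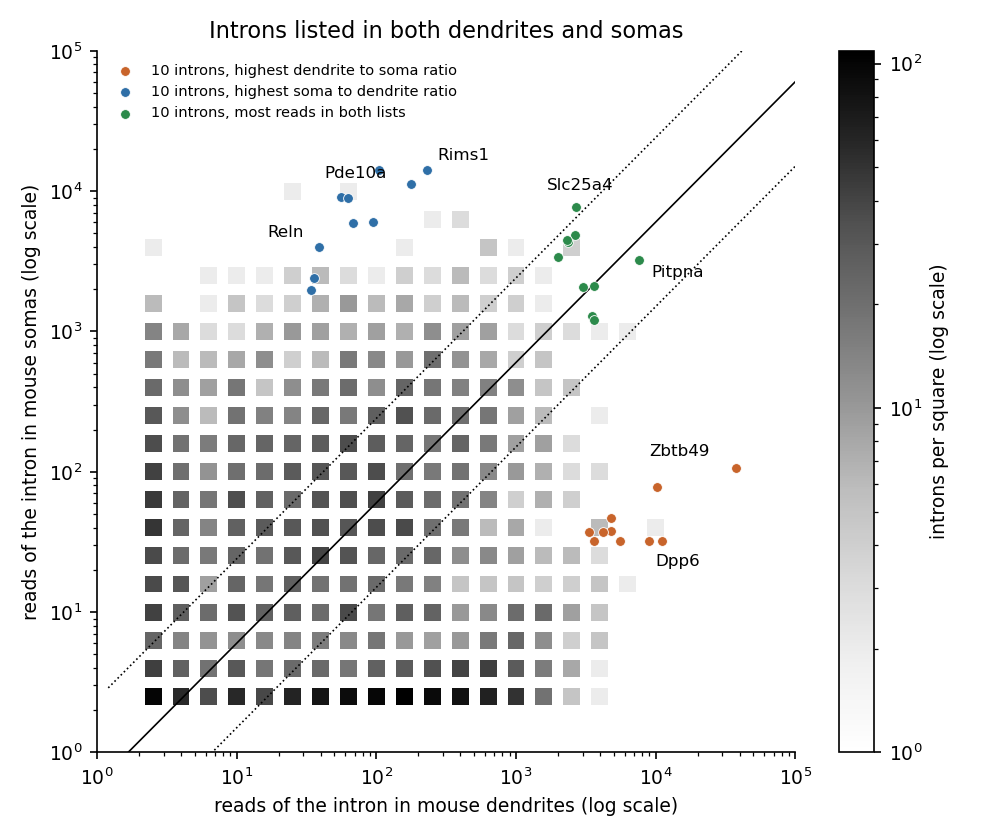
Reads of each of the 5049 introns listed in both, dendrites on the x axis and somas on the y axis, both logarithmic, as the number of introns per square (grey scale, logarithmic). The solid line marks equal scaled reads and the dotted lines a 4-fold ratio. Coloured points are 10 introns each with the highest dendrite ratio (orange), the highest soma ratio (blue) and the most reads in both (green), and the grey squares fill the plane without following the line.

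Where an intron was in both lists, the contigs covered the same place in 2928 of the 5049 introns (58.0%, interval 56.6 to 59.3). In these the overlap had a median length of 212 bases and, at the median, took in 100% of the shorter contig. Among the 3133 overlapping pairs of contigs the soma contig lay inside the dendrite contig in 45.1% and the dendrite contig inside the soma contig in 21.7%, and 2.43% were identical. Where the intron had 1 contig in each list that did not overlap (1184 introns), the gap between them had a median of 1448.5 nt, and the soma contig was the 5′ one in 48.3%. Overlap was found in 69.4% of the introns at least 4-fold higher in dendrites, in 47.5% of those higher in somas and in 56.6% of the rest.

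Whole introns were rarely covered. The contigs of an intron took up a median of 8.42% of its length in dendrites and 9.19% in somas. At least 95% of the intron was covered in 186 dendrite introns (0.971%) and in 245 soma introns (2.36%). In 52 introns this held in both lists. Examples are intron 4 of Atp5g3 (309 reads in dendrites, 670 in somas) and intron 9 of Atp5b (123 and 97), both subunits of the mitochondrial ATP synthase.

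**Figure D2:**
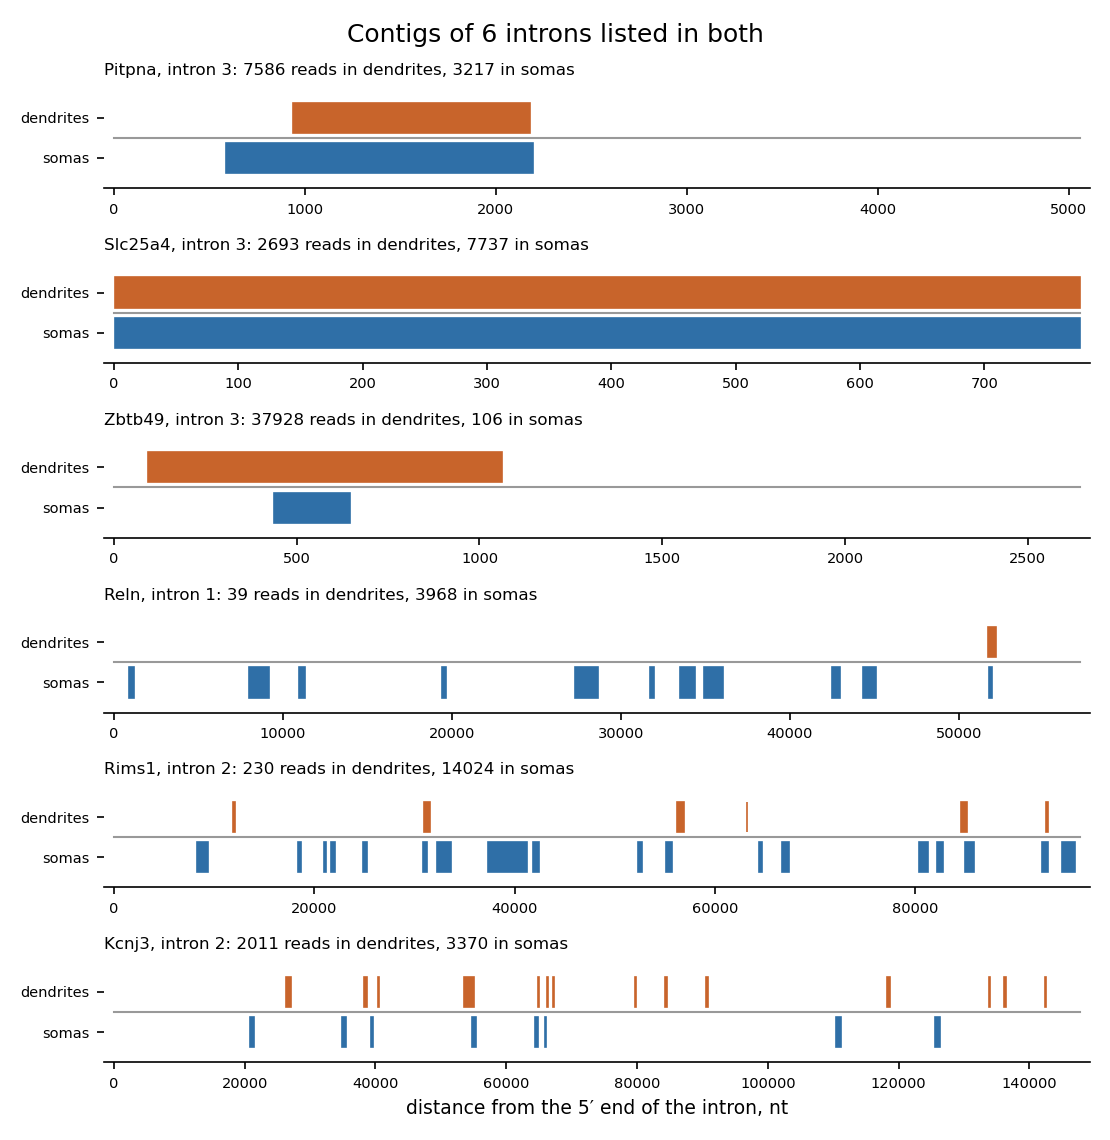
Contigs of 6 introns listed in both, dendrites in orange above the line and somas in blue below it, against the distance from the 5′ end of the intron in nt. Pitpna, Slc25a4 and Zbtb49 have 1 contig in each list at the same place, Slc25a4 over the whole intron, while in Reln, Rims1 and Kcnj3 several contigs are scattered over a long intron and only some of them meet.

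The genes with the most read introns in dendrites only are given first. Intron 2 of Acads, the short-chain acyl-CoA dehydrogenase of mitochondrial fatty acid oxidation, had 10380 reads in dendrites (chr5:115563223-115567573). Intron 10 of Arhgap28, a GTPase activating protein, followed with 8906 reads, intron 3 of Tox3, an HMG-box transcription factor, with 8290, and intron 4 of Zfp661, printed above, with 7550. The others of the first 10 were N6amt2 (intron 2, 6842 reads), Ccdc39 (intron 2, 6456), Smc1a (intron 19, 6330), Tm9sf2 (intron 3, 6314), Tmem178 (intron 2, 6309) and Lonrf3 (intron 2, 5943). Ccdc39 is needed to assemble the inner dynein arms of motile cilia, and Smc1a is a core subunit of cohesin. None of the 10 had any intron in the soma list. Intron for intron, 6 of the 10 were also in the BAT list and 1 in the cardiomyocyte list, so that most of them were listed in another mouse cell type.

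Among genes listed in somas only, 1 intron stood far above the rest. Intron 10 of Gad1, the enzyme that makes the inhibitory transmitter GABA from glutamate, had 45674 reads (2.46% of the soma list) in a contig at chr2:70426138-70427427, and no intron of Gad1 was in the dendrite list. The next was intron 3 of Fkbp6 (chr5:135822163-135823746), an immunophilin-like protein required in meiosis, with 8680 reads. Klhl5 (intron 6) had 5853 reads, Alas2 (intron 8), the erythroid enzyme that opens haem synthesis, had 4431, and Herpud1 (intron 1), a factor of endoplasmic reticulum-associated degradation, had 3527. The remaining 5 were Rbpms2 (3477), Khsrp (3375), a KH-domain regulator of splicing and mRNA decay, Slc25a35 (3164), Gss (3086), the glutathione synthetase, and Porcn (3041), which acylates Wnt proteins. Of these 10 introns, 3 were in the BAT list and 5 in the cardiomyocyte list. Their median length was 1468.5 nt, against 4338 nt for the 10 dendrite-only introns. How the 3 soma libraries share the reads of Gad1 is not known.

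The widest ratios in favour of dendrites, among introns with at least 32 reads in each list, ran from 54.0- to 215-fold. Intron 3 of Zbtb49 (chr5:38601904-38604546), a BTB zinc finger protein, had 37928 reads in dendrites and 106 in somas, 215-fold more scaled reads in dendrites (95% interval 178 to 263). Intron 3 of Dpp6, an auxiliary subunit of Kv4 potassium channels, had 8973 and 32 (169-fold, interval 119 to 247), and intron 1 of Dnajc3, a co-chaperone of the endoplasmic reticulum, had 5582 and 32 (105-fold, interval 74.2 to 153). The type II cadherins Cdh7 (intron 2, 4756 and 47 reads) and Cdh18 (intron 4, 3323 and 37), calcium-dependent adhesion proteins, had ratios of 60.8 and 54.0. Eda (intron 1, 4218 and 37), the ectodysplasin ligand of the TNF family, had a ratio of 68.5, and Gramd3 (intron 2, 10291 and 78) one of 79.3. The other 3 of the 10 were the less studied genes 4930525F21Rik, 4932425I24Rik and A430107O13Rik, at 208-, 76.3- and 68.2-fold.

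The widest ratios in favour of somas reached 271-fold. Intron 2 of Pde10a (chr17:9091855-9113368), a phosphodiesterase that breaks down cyclic nucleotides, had 56 reads in dendrites and 9139 in somas, 271-fold more scaled reads in somas (interval 209 to 360). Intron 3 of Phlpp1, a phosphatase of Akt, had 63 and 8982 (237-fold, interval 185 to 309), and intron 2 of Dlc1, a GTPase activating protein, had 105 and 14140 (224-fold, interval 185 to 274). Reln, an extracellular glycoprotein that guides neuronal migration, had 39 and 3968 reads in intron 1 (169-fold, interval 124 to 238). Of synaptic genes, intron 4 of Sv2c, a synaptic vesicle protein, had 68 and 5941 reads (145-fold) and intron 2 of Rims1, a scaffold of the presynaptic active zone, had 230 and 14024 (101-fold, interval 89.0 to 116). Kcnab1, a potassium channel beta subunit, and Mtss1, which binds actin and membranes, were both at 106-fold, and BC088983 was at 110-fold. Contigs in the introns of Zbtb49 and Cdh7, on the dendrite side, and of Pde10a and Reln, on the soma side, touched an annotated exon on the same strand. The contigs of the 2 lists overlapped in 8 of the 10 introns higher in dendrites and in 6 of the 10 higher in somas.

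The introns with the most reads in both lists, ranked by the lower of the 2 scaled values, are given next, and this ranking favours similar levels. Intron 3 of Pitpna (chr11:75411831-75416890), a phosphatidylinositol transfer protein, had 7586 reads in dendrites and 3217 in somas, 1.42-fold more scaled reads in dendrites (interval 1.36 to 1.48). Intron 1 of Lgr4, a receptor for R-spondins, had 3636 and 2112, a ratio of 1.03 whose interval (0.981 to 1.09) spans equality. Intron 3 of Slc25a4 (chr8:47292975-47293751), the ADP/ATP carrier of the inner mitochondrial membrane, had 2693 and 7737 and was 4.78-fold higher in somas (interval 4.57 to 5), with a contig over the whole intron in both lists. Channel genes were represented by intron 2 of Cacnb2, a calcium channel beta subunit (3529 and 1279 reads), and intron 2 of Kcnj3, a G protein-gated potassium channel (2011 and 3370). Ctnnd2 (intron 9), a delta-catenin of dendrites and synapses, Nrg4 (intron 3), a neuregulin, and Psip1 (intron 10), a chromatin reader, were 3.06-, 3.05- and 3.19-fold higher in somas. Klhl7 (intron 1) was 1.79-fold higher in dendrites, and Zfp938 (intron 3, printed above) had a ratio of 0.881. Contigs in 4 of these 10 introns touched an annotated exon on the same strand. Counted per contig and not per intron, 4.36% of all contigs in dendrites and 8.57% in somas did so, and the 2 counts cannot be set side by side. Of these 10 introns, 9 had overlapping contigs, 9 were in the BAT list and 9 in the cardiomyocyte list.

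Some genes in both lists used different introns in each. AK129341 had 2084 reads in intron 10 in dendrites and 6243 in intron 8 in somas. Slc38a1, a neuronal glutamine transporter, had 1830 reads in intron 15 in dendrites and 738 in intron 4 in somas, with 4 introns in each list and none in common. Gfm2, a factor of mitochondrial translation, had 3409 reads in intron 6 in dendrites against 343 in intron 14 in somas, and Osbpl6, an oxysterol-binding protein, had 1971 in intron 13 against 1183 in intron 15. Agpat5, an acyltransferase of phospholipid synthesis, had 1194 reads in intron 5 in dendrites and 670 in intron 1 in somas.

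The genes with the most listed introns differed in class and in length. Among genes in both, Lrp1b, a large receptor of the LDL receptor family, had 32 introns in dendrites and 22 in somas, 16 of them in common. Reln had 18 and 27 with 14 in common, and Dmd, the dystrophin gene, had 29 and 23 with 14 in common. Sfi1, a centrosomal protein gene with a span of only 61614 nt, had 11 and 13 with 10 in common. Of the genes in dendrites only, 63.8% had 1 listed intron, and the most belonged to Apaf1, the apoptosome scaffold (13 introns), and to Dnahc5 and Fras1 (11 each). Of the genes in somas only, 80.6% had 1 listed intron, and the most belonged to Dgat1, an enzyme of triglyceride synthesis (6 introns).

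Introns and genes in both lists were longer than those in a single list. Introns in both had a median length of 6636.5 nt, dendrite-only introns 3367 nt and soma-only introns 2505 nt. The share of listed introns found in both went from 10.4% of those up to 1000 nt to 87.2% of the 109 above 100000 nt, and the soma-only share went from 36.5% to 0.917%. Genes behaved likewise, with a median span of 55479 nt in both, 27966 nt in dendrites only and 17361 nt in somas only. In transcripts with at least 5 introns, listed introns lay at a median of 41.7% of the way from the first to the last intron when in both, 45.0% when in dendrites only and 53.6% when in somas only. The gene groups below differ in length, and their median spans are given where that bears on the counts.

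**Figure D3:**
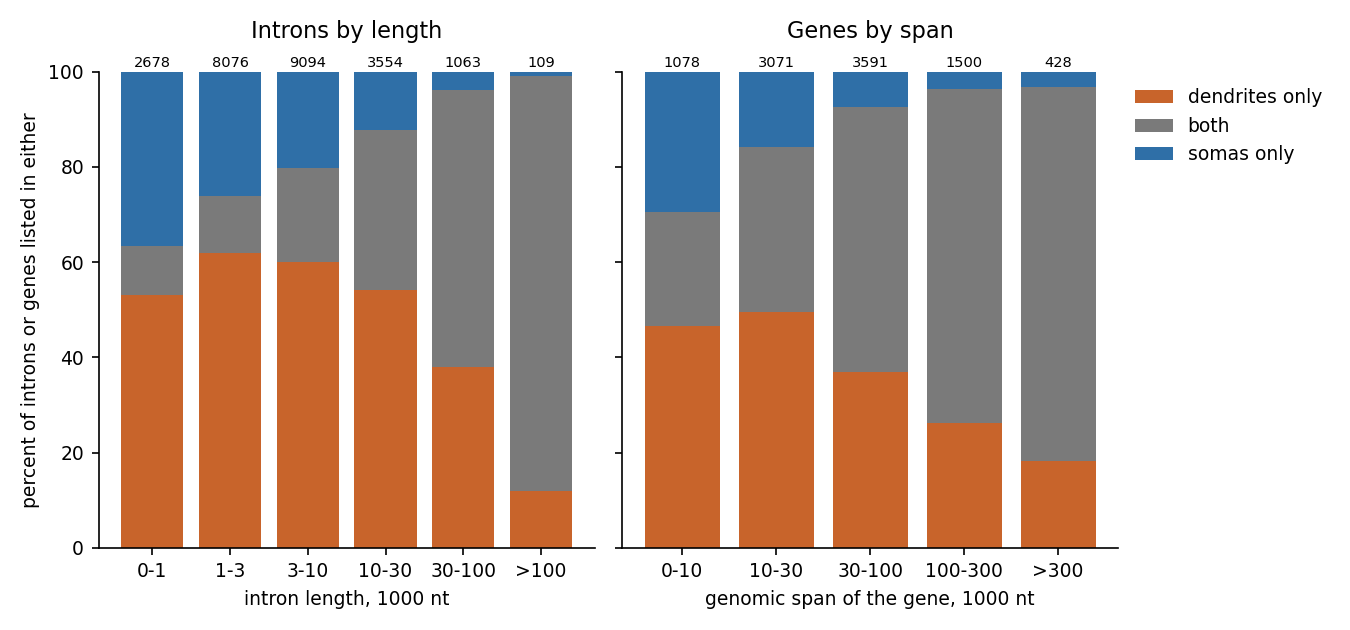
Percent of the listed introns by intron length (left) and of the listed genes by genomic span (right) that were in dendrites only (orange), in both (grey) or in somas only (blue), with the number of introns or genes above each bar. The grey share widens with length in both panels, from 10.4% to 87.2% of introns and from 23.9% to 78.5% of genes.

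The contig ends differed between the lists in their base runs. A run of at least 10 A within 50 bases on either side of the 3′ end was found at 11.8% of dendrite contigs (interval 11.4 to 12.2) and at 22.6% of soma contigs (interval 21.9 to 23.3). A run of at least 10 T within 50 bases of the 5′ end was found at 16.8% of dendrite contigs (interval 16.4 to 17.3) and at 10.5% of soma contigs (interval 9.98 to 11.0). The opposite orientations were rare in both lists, with an A run at the 5′ end of 0.696% and 0.751% and a T run at the 3′ end of 1.37% and 1.15% of contigs. In somas the share with an A run was 10.7% for introns with fewer than 4 reads and 33.2% for those with 256 to under 1024 reads, while in dendrites it stayed between 8.62% and 13.7%. The primer of aRNA amplification is a poly(T) primer and the authors trimmed poly-A and poly-T from the reads, and the part of either in these counts was not tested.

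**Figure D4:**
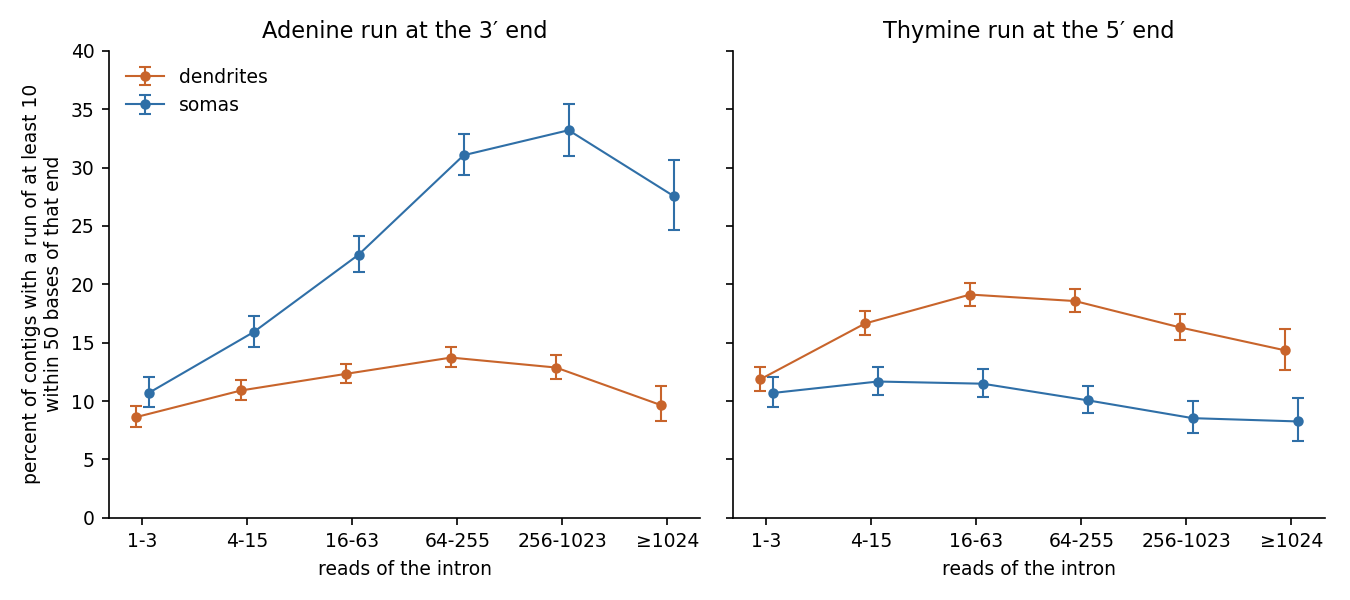
Percent of contigs with a run of at least 10 A near the 3′ end (left) or at least 10 T near the 5′ end (right) in dendrites (orange) and somas (blue), against the reads of the intron, with 95% Wilson intervals. Somas lie above dendrites in the left panel from 4 reads upward, and dendrites lie above somas in the right panel from 4 reads upward.

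The shares were close where the contigs of the lists overlapped. Overlapping contigs lie on shared bases and can have the same run near their ends, so this closeness is partly set by the overlap. In 1643 introns with 1 contig in each list that overlapped, an A run was at 22.6% of the dendrite and 23.4% of the soma contigs, and a T run at 14.9% of both. In 1184 introns whose contigs did not overlap, an A run was at 9.80% of the dendrite and 23.2% of the soma contigs, and a T run at 18.1% and 11.1%. Soma contigs of introns at least 4-fold higher in somas had an A run in 30.5%, among them those of Dlc1, Mtss1, Pde10a, Reln and Rims1 named above. Such runs are shown for the 2 most read single contigs of each list in introns found in both that have a run in the 60 bases beyond the 3′ end. The sequence holds 60 bases inside the contig and 60 beyond it, and capitals mark the run.
Dlg2 (soma contig), intron 22, plus strand, chr7:99592449-99592568: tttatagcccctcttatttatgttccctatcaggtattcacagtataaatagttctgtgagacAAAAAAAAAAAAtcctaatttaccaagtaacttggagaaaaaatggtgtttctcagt
1700081L11Rik (soma contig), intron 6, minus strand, chr11:104216499-104216618: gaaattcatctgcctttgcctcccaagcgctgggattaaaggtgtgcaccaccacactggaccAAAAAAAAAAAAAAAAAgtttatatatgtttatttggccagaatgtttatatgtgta
Serpinf2 (dendrite contig), intron 4, minus strand, chr11:75251093-75251212: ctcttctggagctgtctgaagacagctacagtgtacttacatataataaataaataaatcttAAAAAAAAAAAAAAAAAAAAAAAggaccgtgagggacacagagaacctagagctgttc
Fam179a (dendrite contig), intron 6, plus strand, chr17:72043808-72043927: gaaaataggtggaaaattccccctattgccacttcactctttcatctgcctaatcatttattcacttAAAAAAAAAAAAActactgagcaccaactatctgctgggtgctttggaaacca
The last intron of Dlg2, a postsynaptic scaffold of the PSD-95 family, had 8 reads in dendrites and 4151 in somas, and 12 A followed 3 bases beyond the soma contig. Serpinf2, the inhibitor of plasmin, had 2585 reads in dendrites and 16 in somas, with 23 A starting 2 bases beyond the dendrite contig. The run in 1700081L11Rik (22 and 3029 reads) was 17 A and that in Fam179a (1384 and 8 reads) was 13 A, so that both lists hold strongly read contigs of this kind.

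Genes were then read by function, in 23 groups, against the shares over all listed genes (39.6% dendrites only, 11.8% somas only, 48.5% both). For genes in both the summed scaled reads were compared, where over all 4739 genes the median log2 ratio, dendrites over somas, was 0.27, 33.2% were at least 4-fold higher in dendrites and 24.9% at least 4-fold higher in somas. For genes spanning 100000 to 300000 nt, a length that several neuronal groups have, the shares were 70.2% in both, 26.2% in dendrites only and 3.60% in somas only, with a median log2 ratio of 0.71. The values are counts of reads in introns, not levels of the mRNA. Scaling by the totals of the libraries adds 0.48 to every log2 ratio and leaving the 100 most read introns out of the totals shifts it by −0.23, so groups are read against the median over all genes, which moves with them.

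**Figure D5:**
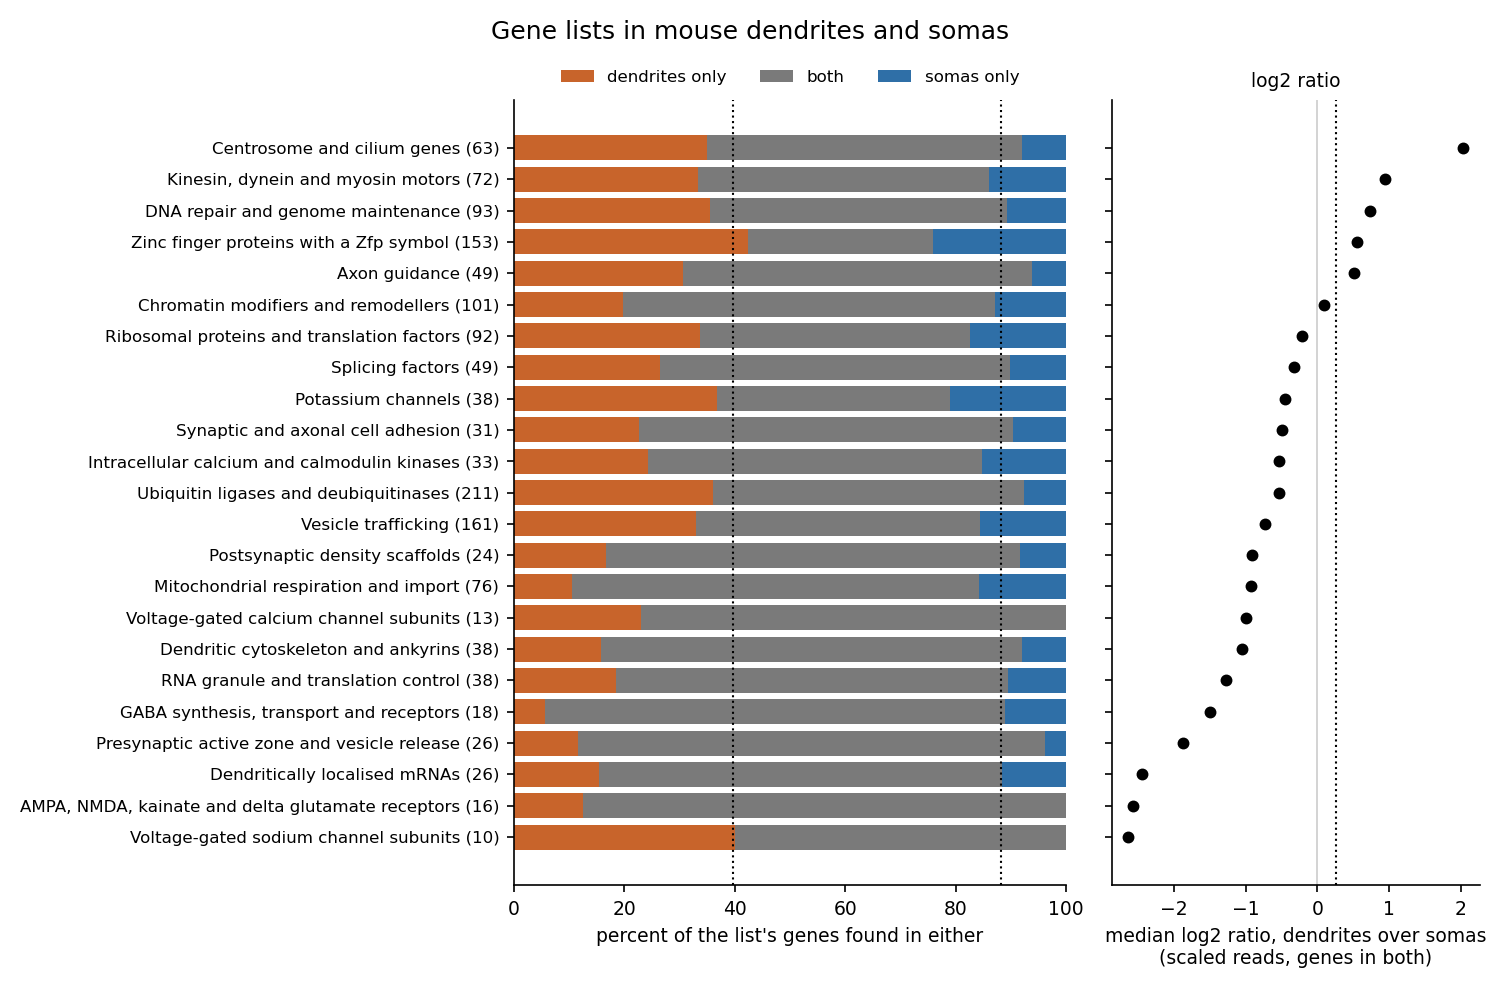
Share of each group's listed genes (number in parentheses) found in dendrites only, both or somas only (left), and the median log2 ratio of scaled reads, dendrites over somas, of its genes in both (right). Dotted lines give the values over all listed genes, and the groups run from centrosome and cilium genes at 2.03 to sodium channel subunits at −2.63.

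Receptors for glutamate, the main excitatory transmitter, were mostly in both lists and on the soma side. Of 18 genes for AMPA, NMDA, kainate and delta receptors 16 were listed, 14 in both and 2 in dendrites only (Grin3b with 322 reads, Grik4 with 4). The median log2 ratio of the 14 was −2.56, with 7 at least 4-fold higher in somas and 2 in dendrites, at a median span of 298303 nt. The AMPA subunit Gria1 had 195 reads in dendrites and 7610 in somas, in 2 and 8 introns, and Gria4 had 1716 and 26828, of which 24913 soma reads came from intron 5 alone. Grin1, the obligatory NMDA subunit, had 13 and 626 reads. Past the fold in dendrites were the delta receptor Grid1, with 1508 reads in 5 introns in dendrites and 8 in 1 intron in somas, and the kainate subunit Grik5, with 137 and 4. The AMPA subunit Gria3, with 890 and 192, was within the fold.

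Among genes of inhibitory transmission Gad1, described above, had the most soma reads. Of 22 genes of GABA synthesis, transport and receptors 18 were listed, 15 in both, 2 in somas only, Gad1 among them, and 1 in dendrites only (Slc6a11, 8 reads). Gad2, the other glutamate decarboxylase, had 462 reads in dendrites and 4322 in somas. The receptor subunit Gabrb2 had 1849 and 5775 reads. The 3 genes past the fold in dendrites were the subunits Gabrb1 with 400 and 38 reads, Gabra3 with 201 and 2, and Gabrg1 with 104 and 2. The median log2 ratio of the 15 was −1.50, with 3 past the fold on each side.

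Voltage-gated channels varied by family. Calcium channel subunits were listed for 13 of 18 genes, 10 in both (median log2 ratio −0.99, 2 past the fold each way) and 3 in dendrites only (Cacna1f with 973 reads, Cacna1i with 210, Cacna1g with 43). Among pore subunits Cacna1b, the N-type channel of presynaptic terminals, had 198 reads in dendrites and 8056 in somas, and Cacna1d, an L-type channel, had 2713 and 270. Sodium channel subunits were listed for 10 of 14 genes, with 4 in dendrites only, among them Scn3b with 327 reads, Scn7a with 227 and Scn10a with 98, and 6 in both at a median of −2.63, 4 of them past the fold in somas and 1 in dendrites. Scn8a, the main sodium channel of adult axons, had 71 and 1034 reads, and Scn3a had 265 and 2. Potassium channels were listed for 38 of 87 genes, 14 in dendrites only, 8 in somas only and 16 in both (median −0.45, 6 past the fold in dendrites and 4 in somas), led by Kcnt2 with 5051 and 3935 reads. Kcnd1, a Kv4 channel, had 3840 and 20 reads and Kcnab1 455 and 7427.

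Genes of the presynaptic side were high in somas at the level of reads. Of 36 active zone and vesicle release genes 26 were listed, 22 in both, 3 in dendrites only and Syn3 in somas only. Their median log2 ratio was −1.88, with 10 past the fold in somas and 2 in dendrites. Syt1, the calcium sensor of fast release, had 72 reads in dendrites and 8662 in somas, Rims1 had 742 and 31732, and Snap25, a SNARE protein, had 34 and 1735. The active zone scaffolds Erc1, with 2167 and 346 reads, and Erc2, with 1932 and 475, had more scaled reads in dendrites but were within the fold.

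Genes of postsynaptic scaffolds past the fold were all on the soma side. Of 29 genes 24 were listed, 18 in both (median log2 ratio −0.91, 6 past the fold in somas, 0 in dendrites), 4 in dendrites only and 2 in somas only. Magi2 had the most reads in dendrites (8261, against 2052 in somas) and Dlg2 in somas (5152, against 3685). Iqsec2, an exchange factor of postsynaptic ARF GTPases, had 2509 reads in dendrites only, while its relative Iqsec1 had 64 and 1408. Sipa1l1, a Rap regulator of spines, had 584 and 4656 reads, and Shank3 had 82 and 836.

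Adhesion molecules of synapse and axon, the group with the longest genes (median span 423589 nt), were listed for 31 of 43 genes, 21 in both, 7 in dendrites only and 3 in somas only. The median log2 ratio was −0.50, with 4 past the fold in dendrites and 5 in somas. Ptprd, a receptor phosphatase that organises synapses, had 229 reads in dendrites and 12295 in somas, and Csmd3 had 1193 and 6. The neuroligin Nlgn1, a postsynaptic partner of neurexins, had 335 reads in dendrites only. Axon guidance genes were listed for 49 of 74, 31 in both (median 0.51, 8 past the fold in dendrites and 5 in somas), 15 in dendrites only and 3 in somas only. Plxdc2 had the most soma reads, 20232, against 3786 in dendrites. Its symbol stands for plexin domain containing, and it is not itself a plexin. It gave 10904 of the group's 16577 summed scaled reads in somas and is among the 5 past the fold there. Sema5a had 5078 and 276 reads, Unc5a 3180 and 2, and the related netrin receptor Unc5c 38 and 2948.

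Transcripts known to be localised to dendrites did not have more intron reads there. Of 35 such genes 26 were listed, 19 in both, 4 in dendrites only (Shank1, Eef2, Limk1 and Calm2, with 18 reads or fewer) and 3 in somas only. The median log2 ratio of the 19 was −2.44, with 10 past the fold in somas and 2 in dendrites, and Gria1, Grin1 and the Shank genes also belong to groups above. Camk2a, the kinase of synaptic plasticity, had 515 reads in dendrites and 446 in somas, and its intron 15 was in both with contigs that shared 358 bases. Kcnma1, the BK channel, had 1597 and 169 reads, Mtap2 (MAP2, the microtubule protein of dendrites) 453 and 116, and Ntrk2 (TrkB, the BDNF receptor) 18 and 741. Arc, Bdnf, Actb, Nrgn and Ddn were in neither list.

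RNA-binding proteins were spread over the classes. Of 47 RNA granule and translation control genes 38 were listed, 27 in both (median log2 ratio −1.28, 3 past the fold in dendrites and 5 in somas), 7 in dendrites only and 4 in somas only. Of the 4 Argonautes, which bind small RNAs, Eif2c2 (588 reads) was in dendrites only, Eif2c1 (366 reads) in somas only, and Eif2c3 (525 and 352 reads) and Eif2c4 (280 and 64) in both. Cpeb3, a translational regulator at synapses, had 2089 and 2567 reads, and Elavl2, a neuronal RNA-binding protein, 86 and 1772. Splicing factors were listed for 49 of 68 genes, 31 in both (median −0.32, 7 and 8 past the fold), 13 in dendrites only and 5 in somas only. Srrm1 had 36 reads in dendrites and 9883 in somas, and Qk, the quaking protein, had 2083 and 2543. Ribosomal protein and translation factor genes, taken by their symbols, were listed for 92 of 160, 45 in both (median −0.22, 9 past the fold in dendrites and 15 in somas), 31 in dendrites only and 16 in somas only. The symbols also take in 8 listed S6 kinase genes and the 4 Argonautes. Without these, a choice made after the values were seen, 80 genes were listed, 40 in both (median −0.55, 7 past the fold in dendrites and 15 in somas), 25 in dendrites only and 15 in somas only. Eif3h had 5857 and 36 reads, Eif4e, the cap-binding factor, 1515 reads in dendrites only, and Rpl8 857 reads in somas only.

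Cytoskeletal genes were on the soma side and motors on the dendrite side of the median over all genes. Of 45 genes of the dendritic cytoskeleton and ankyrins 38 were listed, 29 in both (median log2 ratio −1.05, 2 past the fold in dendrites and 11 in somas), 6 in dendrites only and 3 in somas only. Ctnna2, the neuronal alpha-catenin, had 7069 and 8347 reads, and Mapt, the axonal protein tau, 4 and 418. Motors were listed for 72 of 91 genes, 38 in both (median 0.95, 17 past the fold in dendrites and 9 in somas), 24 in dendrites only and 10 in somas only. The unconventional myosins Myo18b (5183 and 40 reads) and Myo1a (2388 and 5) led in dendrites, while the kinesin Kif21a had 12 and 2084 reads. Vesicle trafficking genes were listed for 161 of 226, 83 in both (median −0.73, 22 and 23 past the fold), 53 in dendrites only and 25 in somas only, with Sec24d, a COPII coat protein, at 3907 reads in dendrites only and Sec62 at 33 and 2438.

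The group furthest to the dendrite side was that of centrosome and cilium genes. Of 70 genes 63 were listed, 36 in both, 22 in dendrites only and 5 in somas only, and the median log2 ratio of the 36 was 2.03, with 18 past the fold in dendrites and 9 in somas. Ttc21b, a subunit of the intraflagellar transport complex that carries cargo along cilia, had 8404 reads in dendrites and 287 in somas. The centriole protein Cep152 had 3164 and 219, and Cep97 had 3861 reads in dendrites only. The reverse was seen in Nin, a centrosomal anchor of microtubules, with 12 and 1078 reads, and in Ahi1, with 668 and 2066.

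Genes that maintain and package DNA are given next. DNA repair and genome maintenance genes were listed for 93 of 115, 50 in both (median log2 ratio 0.73, 22 past the fold in dendrites and 10 in somas), 33 in dendrites only and 10 in somas only. Atm, the kinase that answers DNA breaks, had 3971 reads in dendrites and 159 in somas, and Pola1, a subunit of DNA polymerase alpha, 3784 and 56. Mlh3, a mismatch repair protein, had 15 and 852. Chromatin modifiers were listed for 101 of 124, 68 in both (median 0.09, 19 past the fold each way), 20 in dendrites only and 13 in somas only. The median and the shares past the fold lie near those over all genes. The histone methyltransferase genes Mll3, with 8674 and 18 reads, and Nsd1, with 169 and 2872, were the most read on either side. Zinc finger genes with a Zfp symbol were listed for 153 of 359, 51 in both (median 0.55, 15 and 14 past the fold), 65 in dendrites only and 37 in somas only.

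Ubiquitin, mitochondrial and calcium genes complete the groups. Ubiquitin-conjugating enzymes, ligases and deubiquitinases were listed for 211 of 346, 119 in both (median log2 ratio −0.53, 29 past the fold in dendrites and 37 in somas), 76 in dendrites only and 16 in somas only. Herc1 had 10409 reads in dendrites and 841 in somas, and Ube3a, the ligase of Angelman syndrome, 137 and 2841. Genes of mitochondrial respiration and import were listed for 76 of 119, 56 in both (median −0.93, 4 past the fold in dendrites and 14 in somas), 8 in dendrites only and 12 in somas only. Their share in both, 73.7%, stood beside 23.9% over all genes spanning up to 10000 nt, and their median span was 7760 nt. Uqcrc2, a core subunit of complex III, had 342 and 2768 reads, and Cox7a2, of complex IV, 749 and 49. Intracellular calcium and calmodulin kinase genes were listed for 33 of 39, 20 in both (median −0.53, 6 past the fold in dendrites and 3 in somas), 8 in dendrites only and 5 in somas only. Stim1, the calcium sensor of the endoplasmic reticulum, had 2506 and 20 reads.

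Markers of neurons and of other cells were read in the same way, as intron reads. Of 12 neuronal markers 8 were listed, 5 in both, Rbfox3 and Tubb3 in somas only and Dcx in dendrites only, and their summed scaled reads were 272 in dendrites and 5853 in somas, most of the latter from Syt1. The neurofilament genes Nefl, Nefm and Nefh had no listed intron. Of 11 astrocyte markers 5 were listed, with summed scaled reads of 966 in dendrites and 142 in somas. Nearly all of the dendrite value came from Aldh1l1 (2826 and 6 reads), while Gfap had 5 reads and Aqp4 2 in dendrites only, Slc1a2 had 254 in somas only, and Gja1, Glul, S100b and Sox9 were not listed. Of 8 fibroblast and mural cell markers 5 were listed, with summed scaled reads of 143 in dendrites and 1.08 in somas, from Rgs5 (254 and 2 reads), Col3a1 (104 and 0), Col1a2 (47 and 0), Lum (30 and 0) and Acta2 (6 and 0). Endothelial markers were listed for 5 of 8 (summed scaled reads 649 and 733), with Flt1 at 1367 and 8 reads, Kdr at 10 and 706, and Pecam1 not listed. Cldn5 and the oligodendrocyte marker Olig1 were not among the annotated genes with an intron, so their absence says nothing about reads. Microglial markers were listed for 3 of 10 (342 and 168), led by Itgam at 838 and 70 reads, and oligodendrocyte markers for 3 of 11 (23.3 and 56.1), led by Pdgfra at 66 and 102 reads. The sums for astrocytes, neurons and mural cells rested on few genes. Rgs5 alone made up 82.3 of the 143 scaled reads in dendrites and all of the soma value, and it is also among the genes with dendritically localised transcripts above. Without Aldh1l1, a choice made after the values were seen, the astrocyte sums were 50.9 in dendrites and 139 in somas, and without Syt1 and Snap25 the neuronal sums were 237 and 249. The part of any marker group in the group values above was not tested.

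Introns common to both neuronal lists were also those most often found in other cells. Of the introns in both, 67.0% were in the BAT list and 40.4% in the cardiomyocyte list. Of dendrite-only introns the shares were 42.2% and 18.3%, and of soma-only introns 44.9% and 26.0%. By gene, 71.8% of the dendrite-only genes, 65.9% of the soma-only genes and 91.0% of those in both had an intron in the BAT list. Across species, 583 of the 3868 mouse dendrite-only genes (15.1%) were in the rat dendrite list and not in the rat soma list, matched by symbol. Of the 4739 mouse genes in both the same share was 15.1% (716 genes), and of the mouse soma-only genes it was 12.3% (142 genes). The reverse share, in the rat soma list and not in the rat dendrite list, was 6.13% of the dendrite-only genes (237 genes). It was 8.97% of the genes in both (425 genes) and 9.52% of the soma-only genes (110 genes). Dendrite-only genes thus equalled genes in both on the rat dendrite side and were lowest on the rat soma side. These shares were not matched for gene length.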

How the data were processed

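Intronic reads were measured in 3 mouse dendrite and 3 mouse soma libraries. The authors trimmed adapters, poly-A and poly-T from paired-end reads, aligned them to mm9 with RUM, kept uniquely mapped intronic reads, left out introns with predicted genes, poly(A) sites or non-coding RNAs, and clustered reads into contigs, pooling the libraries of a group. The deposited values are raw, not normalized counts: the reads that the authors assigned to each intron. They were taken one time per transcript and intron and scaled to 1000000 reads of each list. The listed intronic reads summed to 3086576 for dendrites and 1855447 for somas, and these sums are not the sequencing depth of the libraries.

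Python 3.11.15 with pandas 2.3.3 was used for the tables, scipy 1.17.1 for the intervals (95% Wilson for shares, exact Clopper-Pearson for ratios), pysam 0.24.0 for sequence and matplotlib 3.10.9 for plots. Positions count from 1. Contigs that reach the end of an intron stop 1 base before the annotated end, so the last base is uncertain by 1. Intron numbers run from the 5′ end, and 98.3% of the introns were placed in the GENCODE annotation of NCBIM37. Overlap meant at least 1 shared base. The paper does not say whether contigs were cut at intron borders. The counting steps were tested on simulated lists.

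With 1 pooled list per group no test was made, and a fold of 4 marks a difference. The genes named are the 10 most read single introns of genes in each list only, the 10 highest ratios each way among introns with at least 32 reads in each list, the 10 introns and 5 genes without a common intron with the highest lower value, and, in the 23 functional groups and 6 marker groups, some of the 3 most read members in each list and, in groups of fewer than 50 genes, other members whose class is described. The genes, groups and rules were chosen with earlier results of these data known. Read minimums, contig length limits, 1 transcript per gene, other scalings, folds and overlaps were tried as alternatives. Larger functional groups were taken by symbol. A few members that the rule names are not reported here.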

Additional observations from a re-analysis of the deposited data

How the results depend on the processing

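Of 63 values computed under 12 alternative settings, 43 moved by less than 1.5 times (the median ratio by less than its interval) and 20 by more. With introns of at least 16 reads in each list, 2601 genes and 1969 introns were in both, 9276 introns in dendrites only, 255 introns were past the fold in dendrites and 585 in somas, the median log2 ratio was −0.73 and 1194 introns had overlapping contigs. With at least 64 reads, 1451 genes and 901 introns were in both, 5700 introns in dendrites only and 2573 in somas only, 80 and 222 were past the fold and the median was −0.77. With contigs of at most 400 nt in both lists, 2826 introns were in both, 953 and 781 were past the fold and 1210 had overlapping contigs. These settings keep fewer introns, but shares moved too. With at least 4 reads in each list (3553 introns), 24.0% were past the fold in dendrites and 31.7% in somas. These shares were 13.0% and 29.7% at 16 reads and 8.88% and 24.6% at 64 reads. Overlap went from 58.0% to 42.8% with the contig limit in both lists. At 64 reads genes in both went from 48.5% to 26.8%, genes in somas only from 11.8% to 19.2% and introns in both from 20.2% to 9.82%. The cause was not tested. Scaling by the totals of the libraries gave a median of 0.42, and list totals without the 100 introns with the most reads gave −0.28, so the sign of the median over introns depends on the scaling. In the latter setting 31.0% of introns were past the fold in dendrites and 32.2% in somas, the reverse order of 32.4% and 30.3%. Scaled by the totals of the libraries, 35.9% were past the fold in dendrites and 26.2% in somas. No paired analysis was possible because the libraries of a group are pooled in 1 list, no column carries a replicate, and no result comes from a test. Leaving out a library was not possible for the same reason.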
